A study of Mus musculus with 4 samples.

Results

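The Paneth class of the mouse small intestine comprised the cells to which the authors' deposited cell table gives the annotation Paneth, 188 of 15053 cells. Control libraries 1 and 2 held 35 and 56 of these cells, and ketogenic libraries 1 and 2 held 55 and 42. The study, whose title concerns a ketogenic diet and intestinal tumours, placed mice on a control or a ketogenic diet and profiled dissociated intestine with the 10x 3' v2 assay, which counts individual messenger RNA molecules by unique molecular identifiers (UMIs). All 4 libraries are labelled small intestine, the cell table lists every library as male and normal, and they differ in the labels only by diet. A ketogenic diet is rich in fat and very poor in carbohydrate. The labels and files used here do not state strain, age, diet duration or the number of animals behind a library, so p-values measure the spread between libraries, which may be partly technical.

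Paneth cells sit at the base of the small intestinal crypts, between the stem cells, and discharge granules of antimicrobial proteins into the crypt lumen. In the mouse these granules hold lysozyme (Lyz1), many alpha-defensins, the matrix metalloproteinase Mmp7 that activates the defensin precursors, the ribonuclease Ang4 and the lectin intelectin (Itln1). Paneth cells also supply Wnt and epidermal growth factor signals to neighbouring stem cells, and they share the secretory lineage factor Atoh1 with goblet cells, which make mucus.

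The class gave 289338 and 302402 UMIs in the control pair of libraries and 526414 and 345277 in the ketogenic pair, and the median cell held from 5111 to 7618 UMIs. Levels below are counts per 1000000 UMIs of the summed cells (CPM). Cell barcodes found in more than 1 library numbered 109, and 3 Paneth class cells carried such a barcode. Of 20 immune markers, 16 were at 0 UMIs in the class, Ptprc among them. Of the enterocyte list, 23 of 26 markers were detected, at a summed level of 1547 to 2090 CPM against 8169 to 14587 in enterocytes.

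The annotated class held cells of 2 very different kinds of content. A list of Paneth granule genes, 35 of whose 56 symbols are in the matrix and 32 of which had a UMI in the class, made up from 0.492% to 91.8% of a cell's UMIs. In 23 cells the list took 30% or more, with a median of 80.4%, and these are called granule-rich below. In the other 165 cells it took a median of 2.79%. The highest cell under the threshold stood at 22.96% and the lowest cells above it at 30.05%, 34.63% and 60.7%, so 4 cells lay between 20% and 50%. No cell of another class reached 30%, and the highest there was 18.7%.

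**Figure D1:**
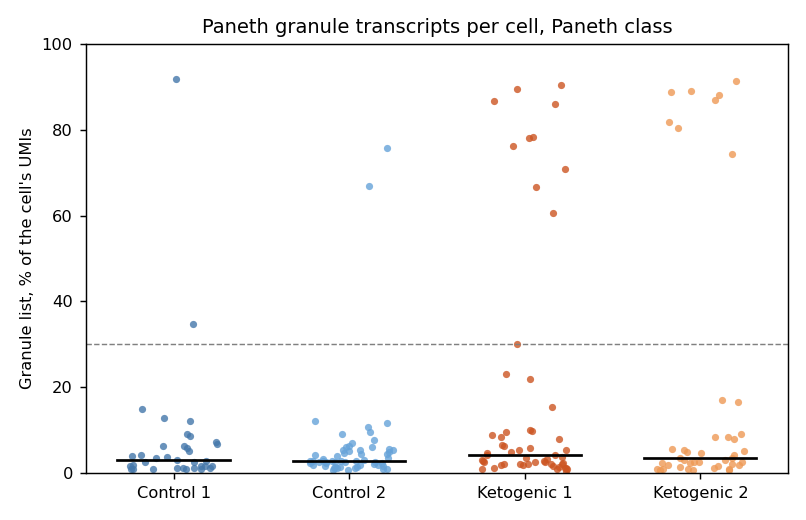
Share of each Paneth class cell's UMIs that fell in the Paneth granule list (vertical axis, percent) by library; each point is a cell, black bars are medians over cells and the dashed line marks 30%. The 23 cells above the line number 2, 2, 11 and 8 from left to right, and the medians of the libraries lie between 2.80% and 4.27%.

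The 23 granule-rich cells gave 28.0% of the class's UMIs and 88.1% of its granule UMIs. Their median depth was 9768 UMIs, up to 73635, against 6422 in the other 165 cells. A doublet caller, Scrublet, marked between 0.0204% and 0.188% of the cells of a library, a rate too low to be taken as working. Of the 23 granule-rich cells, 0 were in the top 6% of their library's doublet scores, and 9 of the 188 class cells were.

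In the larger group of cells the label was borne out by its markers only in part. The granule-rich cells were chosen by a list that holds Defa24, Lyz1, Itln1 and Mmp7. High levels of that list there follow from the choice and do not bear out the label. Summed over the 23 granule-rich cells, Defa24 stood at 251795 CPM in control library 1, 342620 in control library 2, 337114 in ketogenic library 1 and 303824 in ketogenic library 2. In the other 165 cells Defa24 stood at 30439, 25072, 33258 and 26375 CPM in the same order. Goblet cells had 830 to 1023 and enterocytes 63.2 to 266. Lyz1 in the 165 cells ranged from 2674 to 5411 CPM, against 268 to 681 in goblet cells, and Itln1 from 1727 to 3142 against 156 to 221. As a share of all UMIs, Mmp7 was about as high in the 165 cells, at 1461 to 2515 CPM, as in the granule-rich cells, at 1542 to 2590. The granule list took 3.77% to 4.82% of the summed UMIs in the 165 cells and 74.2% to 83.4% in granule-rich cells. Equal CPM there is thus not an equal level beside the RNA outside the list. These levels describe cells that were annotated by their transcripts, and no test is made of them.

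The same 165 cells also carried goblet transcripts at goblet levels. Muc2, the gel-forming mucin, stood at 2642 and 3173 CPM on the control diet and at 4399 and 3058 on the ketogenic diet, against 1809 to 2204 in goblet cells. The trefoil peptide gene Tff3 ranged from 26711 to 43075 CPM against 30119 to 35310, and Atoh1 from 369 to 438 against 328 to 373. Spink4, a small secreted inhibitor of the goblet list, was higher, at 32251 to 41587 CPM against 11183 to 14601. Other goblet genes were lower than in goblet cells, with Clca1 at 48.6 to 281 CPM against 593 to 833. In granule-rich cells Muc2 stood at 420 to 714 CPM, Fcgbp, a mucus protein, at 0 to 175, and Atoh1 at 33.6 to 89.3. The granule list took 74.2% to 83.4% of the summed UMIs of these cells, which lowers the CPM of every other gene there. The whole goblet list of 24 genes summed to 95627 to 136186 CPM in the 165 cells and to 83316 to 95669.7 in goblet cells. In granule-rich cells it summed to 14050 to 40629, again as a share of all UMIs. These lower values do not show fewer goblet transcripts beside the RNA outside the granule list. Cell by cell, 142 of the 165 (86.1%, median depth 6422 UMIs) held at least 1 UMI of each of Defa24, Spink4, Mmp7, Muc2 and Tff3, as did 34.3% of goblet cells (8364 UMIs) and 0.153% of enterocytes (8208 UMIs). The median one of the 165 cells had 16674 CPM of Defa24, with quartiles of 6444 and 39205, 1445 CPM of Mmp7 and 2708 CPM of Muc2, against 141, 98.8 and 1292 CPM in the median goblet cell.

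**Figure D2:**
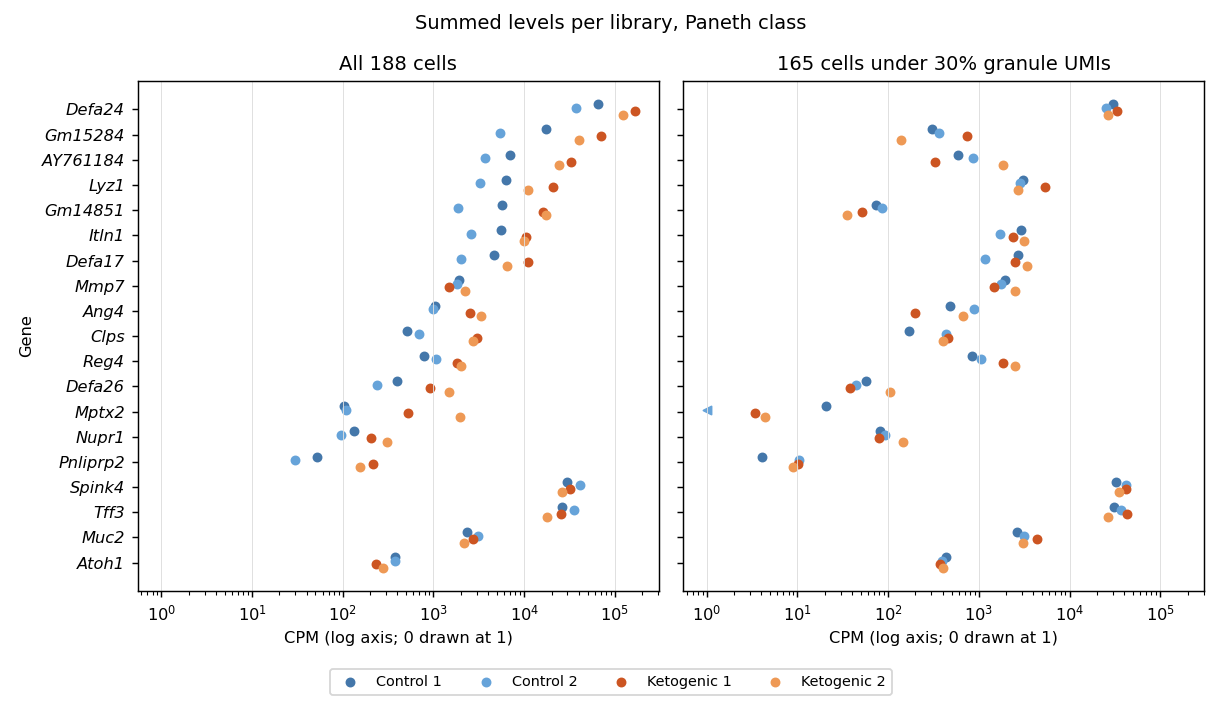
Level in CPM of summed counts (horizontal log axis) for 19 genes in each library, over all 188 Paneth class cells at left and over the 165 cells under 30% granule UMIs at right; points are libraries. For granule genes such as Gm15284 and AY761184 the libraries of the 2 diets separate at left, with levels of 5456 to 69896 and 3694 to 33029 CPM, and overlap at right.

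The mix of defensin transcripts differed between the 2 sets of cells. Gm15284, an alpha-defensin gene that RefSeq names Defa30, gave 38.6 to 46.4 UMIs for each 100 UMIs of Defa24 in granule-rich cells. In the other 165 cells it gave 1.01 and 1.47 on the control diet and 2.22 and 0.519 on the ketogenic diet. Stem, transit amplifying, enteroendocrine and tuft cells and enterocytes, in which Defa24 stood at 63.2 to 380 CPM, had ratios of 27.3 to 45.8, near that of granule-rich cells. Goblet cells lay between, at 2.78 to 6.76. AY761184, another alpha-defensin gene, gave 16.5 to 22.6 UMIs per 100 of Defa24 in granule-rich cells and 0.987 to 6.99 in the 165 cells. The 5 classes from enteroendocrine cells to enterocytes ranged more widely for it, from 7.84 to 20.7. Defa20 held no single ratio either, and in control library 2 it gave 0.182 in granule-rich cells, 7.85 in enterocytes and 20.5 in enteroendocrine cells. The part of free RNA in these ratios was not tested. For Lyz1 the ratio was 4.01 to 11.9 in granule-rich cells against 10.1 to 16.3 in the 165 cells.

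**Figure D3:**
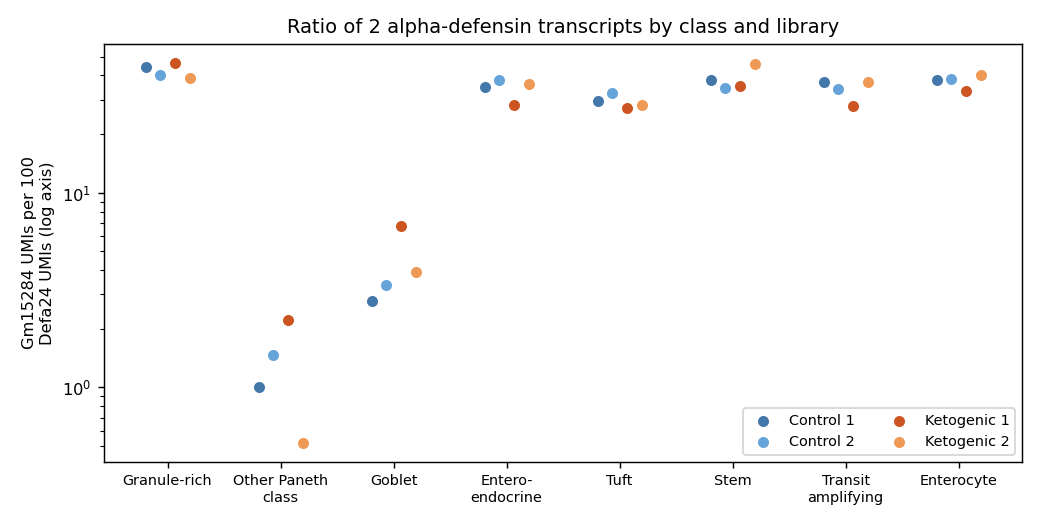
Gm15284 UMIs per 100 Defa24 UMIs (vertical log axis) in 2 sets of Paneth class cells and in 6 other classes; points are libraries. Granule-rich cells and the 5 classes from enteroendocrine to enterocyte lie between 27.3 and 46.4, and the other Paneth class cells between 0.519 and 2.22.

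The granule-rich cells shared a core of transcripts. Defa24 made up from 22.9% to 82.2% of a cell's granule UMIs, with a median of 40.4%, and was present in all 23 cells. Gm15284 reached 1% of granule UMIs in 21 cells, AY761184 in 22, Lyz1 in 21 and Itln1 in 22, with medians of 14.2%, 7.87%, 4.59% and 3.62%. Other members were used unequally from cell to cell. Defa20, Defa21 and Defa22 together ranged from 0.0337% to 35.1%, and they reached 10% in 2 of 2, 0 of 2, 4 of 11 and 5 of 8 cells of control libraries 1 and 2 and ketogenic libraries 1 and 2. Mptx2, a pentraxin gene, had from 0 to 309 UMIs in a cell. Gm15299, which RefSeq names Defa27, took 0.319% to 4.35% of granule UMIs in the 11 cells of ketogenic library 1 and at most 0.400% in the cells of the other 3 libraries, so it was high in 1 library and not in both libraries of a diet.

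**Figure D4:**
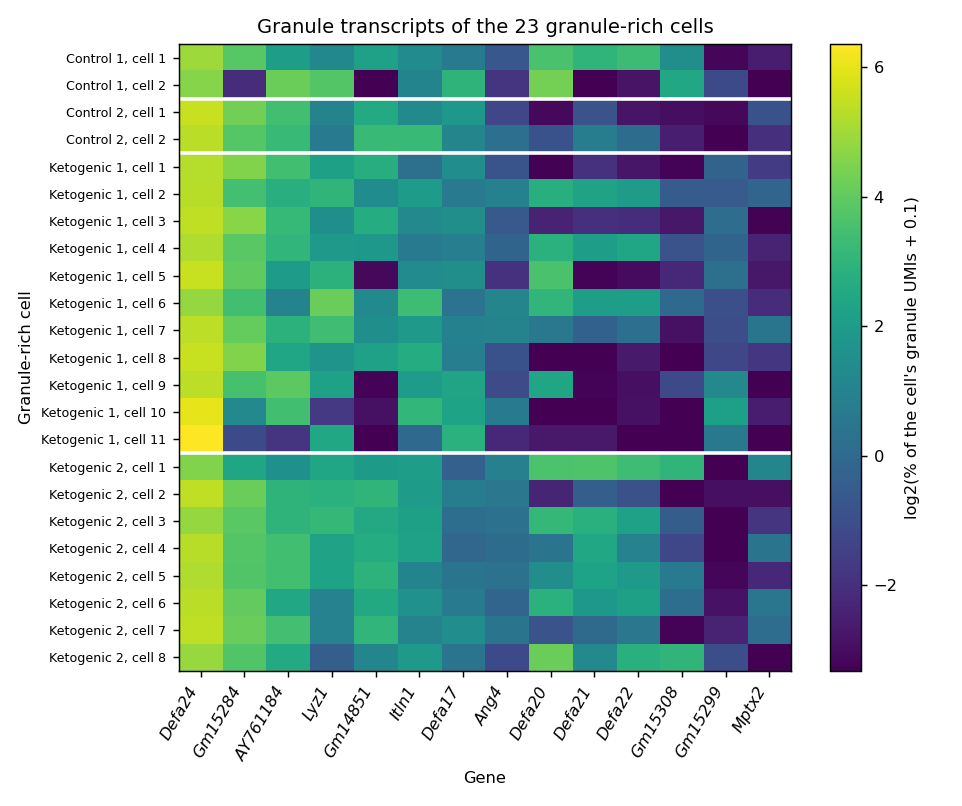
Log2 of each gene's percent of granule UMIs plus 0.1 (colour) in the 23 granule-rich cells (rows, grouped by library) for 14 genes (columns). Defa24 is high in every row, at 22.9% or more, while Defa20, Defa21 and Defa22 vary among cells of the same library and Gm15299 is highest in ketogenic library 1.

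The alpha-defensins counted here lie close together on chromosome 8 of mm10, with Gm15284 at 21134642 to 21135598 and Defa24 at 21734494 to 21735471. Many of them are near-copies of each other. With the longest transcript of each gene compared, Defa20 and Gm15308 are 99.8% identical, Defa21 and Defa22 99.3% and Defa24 and Defa23 93.6%. Reads may therefore be split or lost between such members, and their single levels are uncertain. Others stand apart, such as Gm14851, which by the same measure is 69.3% identical to its nearest member. Lyz1 lies on chromosome 10 at 117287797 to 117292868 and Mptx2 on chromosome 1 at 173274382 to 173277777. The promoters of 4 members are shown because they stand for the core defensins, for the group that varied between cells and for granule genes outside the family. Each runs 5′ to 3′ on the gene's own strand from 250 bases before to 50 bases after the gene's start in RefSeq (GRCm38.p6), and capitals mark ATCAAAG, a motif bound by TCF factors of the Wnt pathway.
Gm15284 (Defa30), plus strand, chr8:21134400-21134699: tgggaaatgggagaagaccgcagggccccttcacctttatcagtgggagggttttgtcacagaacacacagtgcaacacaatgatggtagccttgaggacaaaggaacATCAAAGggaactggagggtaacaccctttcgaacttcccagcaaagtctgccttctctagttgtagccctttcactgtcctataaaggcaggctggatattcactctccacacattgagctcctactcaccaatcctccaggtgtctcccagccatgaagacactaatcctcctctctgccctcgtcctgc
Defa22, plus strand, chr8:21162027-21162326: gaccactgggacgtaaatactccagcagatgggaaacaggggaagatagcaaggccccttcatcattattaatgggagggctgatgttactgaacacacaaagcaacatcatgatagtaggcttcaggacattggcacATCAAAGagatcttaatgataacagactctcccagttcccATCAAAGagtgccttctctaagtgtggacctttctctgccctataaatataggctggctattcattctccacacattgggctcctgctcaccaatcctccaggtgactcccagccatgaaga
Lyz1, minus strand, chr10:117292819-117293118: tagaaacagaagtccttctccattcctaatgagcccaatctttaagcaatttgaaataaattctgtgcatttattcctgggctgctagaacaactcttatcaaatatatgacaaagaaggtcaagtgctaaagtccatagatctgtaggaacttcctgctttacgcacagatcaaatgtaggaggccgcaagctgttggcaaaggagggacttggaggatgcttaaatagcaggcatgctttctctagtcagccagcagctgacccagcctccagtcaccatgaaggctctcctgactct
Mptx2, minus strand, chr1:173277707-173278006: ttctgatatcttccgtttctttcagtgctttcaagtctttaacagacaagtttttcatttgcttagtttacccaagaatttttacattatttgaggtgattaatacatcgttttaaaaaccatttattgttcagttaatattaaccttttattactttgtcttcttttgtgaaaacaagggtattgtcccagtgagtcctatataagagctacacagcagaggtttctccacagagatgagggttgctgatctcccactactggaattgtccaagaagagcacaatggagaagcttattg

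The motif was searched as ATCAAAG and as its reverse complement CTTTGAT. It occurred in 10 of 14 alpha-defensin promoters found in the RefSeq table and in 14 of 24 promoters matched to the granule list, against 3.73% of all 32851 promoters. The defensin promoters are themselves copies (Defa22 and Defa20 are 97.7% identical, Defa22 and Defa30 66.7%), so their matches are not separate events. A match is only a description of these letters.

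The first diet comparison asked whether the class was captured more often. It made up 0.986% and 1.14% of the cells on the control diet and 1.72% and 1.23% of those on the ketogenic diet. Both ketogenic values lay above both control values, but the log2 ratio of 0.46 ± 0.24 (SE, n = 2 libraries per diet) did not pass edgeR's quasi-likelihood test on cell numbers (adjusted p = 0.252).

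Granule content was higher in both ketogenic libraries than in either control library. The granule list took 16.6% and 6.38% of the class's summed UMIs on the control diet and 39.3% and 31.5% on the ketogenic diet, and the groups did not overlap. These sums lean on few cells. The cell with the most granule UMIs held 35108 of 48102 in control library 1 and 6974 of 19296 in control library 2. In ketogenic libraries 1 and 2 such a cell held 66649 of 206960 and 32154 of 108885. Granule-rich cells were 2 of 35 (5.71%, exact 95% binomial interval 0.700% to 19.2%) and 2 of 56 (3.57%, 0.435% to 12.3%) cells in the control libraries. In the ketogenic libraries they were 11 of 55 cells (interval 10.4% to 33.0%) and 8 of 42 cells (19.05%, 8.60% to 34.1%). These intervals cover counting error only. For both measures the exact two-sided permutation test gave p = 0.33, the smallest that 2 against 2 libraries allow. The medians over all cells of the class differed far less, at 2.97% and 2.80% against 4.27% and 3.51%.

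Gene by gene, 13 of 2957 genes tested (0.44%) rose on the ketogenic diet and 0 fell (0.0%) by edgeR's quasi-likelihood test with Benjamini-Hochberg adjustment at 0.05. At an unadjusted p under 0.05, 91 genes were lower (3.08%) and 136 higher (4.6%), and DESeq2 called 10 genes, all higher, 8 of them shared. Fold changes below are edgeR's log2 values on TMM-scaled libraries with their SE, n = 2 libraries per diet, with scaling factors of 1.16 and 1.21 for the control and 0.759 and 0.938 for the ketogenic libraries, while levels are plain CPM of the class without that scaling. Of the 13 genes, 8 are on the granule list, 4 on a list of other Paneth markers (Clps, Pnliprp2, Reg4 and Nupr1), and 1 lies under the level set for naming a gene. In these summed libraries, more granule-rich cells and more RNA per cell cannot be told apart.

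Among antimicrobial proteins outside the defensins, Ang4 stood at 1040 and 976 CPM on the control diet and at 2549 and 3305 on the ketogenic diet. It rose by 1.99 ± 0.21 on the log2 scale (edgeR adjusted p = 0.00161). Mptx2 stood at 104 and 109 against 530 and 1943 CPM and rose by 3.92 ± 0.46 (edgeR adjusted p = 0.00299). A single cell held 25 of its 30 UMIs in control library 1 and 31 of 33 in control library 2. In ketogenic libraries 1 and 2 a single cell held 145 of 279 and 309 of 671. The groups did not overlap for either gene, and the ketogenic libraries differed most from each other in Mptx2. Lyz1 stood at 6352 and 3241 against 20904 and 11130 CPM, a difference of 2.24 ± 0.43 that missed the threshold (edgeR adjusted p = 0.0617). Itln1 was similar, with 5592 and 2606 against 10516 and 10015 CPM and a difference of 1.78 ± 0.35 (edgeR adjusted p = 0.0653). Mmp7, the protease, overlapped between the diets at 1897 and 1802 against 1497 and 2210 CPM, with a difference of 0.44 ± 0.20 (edgeR adjusted p = 0.674).

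Of the alpha-defensins, 26 are in the matrix and 21 were tested. The 6 that rose were Defa23 (3.11 ± 0.31), Defa26 (2.36 ± 0.27), AY761184 (2.91 ± 0.38), Gm14851 (2.61 ± 0.45), Gm15292 (3.59 ± 0.37) and Gm15315 (2.78 ± 0.44), with edgeR adjusted p between 0.00161 and 0.0372. AY761184, the most abundant of them, stood at 6933 and 3694 CPM on the control diet and at 33029 and 24068 on the ketogenic diet. Defa26 stood at 394 and 238 against 916 and 1497. Defa24, the dominant transcript, stood at 64748 and 36832 against 168364 and 122001 CPM, and its difference of 2.00 ± 0.37 fell just short (edgeR adjusted p = 0.0549). Gm15284 (2.76 ± 0.54) had an edgeR adjusted p of 0.0617, and Defa17 (1.87 ± 0.43) had 0.153. Gm15299 had 11 and 1 UMIs on the control diet and 2055 and 83 on the ketogenic diet, so its fitted difference rests on ketogenic library 1.

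Over the whole granule list, 29 of the 35 measured genes were tested, 8 rose, and 23 had both ketogenic libraries above both control libraries, against 19.1% of all genes tested. No granule gene had both below, against 20.1% of all genes. The median log2 difference was 1.99 beside -0.01 over all 2957 genes. Genes of this list share cells, and most reached the test through the libraries where they were high, so these counts describe the list and add no support.

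The 4 other Paneth markers include genes of fat digestion. Clps encodes colipase, the cofactor of pancreatic lipase. It stood at 508 and 694 CPM on the control diet and at 3015 and 2725 on the ketogenic diet and rose by 2.74 ± 0.25 (edgeR adjusted p = 0.00161). Pnliprp2, a lipase of the same family as pancreatic lipase, stood at 51.8 and 29.8 against 217 and 153 and rose by 2.70 ± 0.35 (edgeR adjusted p = 0.00527). Reg4, a secreted lectin-like protein, stood at 778 and 1068 against 1812 and 2022 and rose by 1.52 ± 0.21 (edgeR adjusted p = 0.00807). Nupr1, a stress-induced nuclear protein, stood at 131 and 95.9 against 205 and 304 and rose by 1.60 ± 0.20 (edgeR adjusted p = 0.0051).

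Single libraries mattered to these calls. Without ketogenic library 1 only 2 of 3539 genes were called, Mptx2 and Gm15292, and the edgeR adjusted p was 0.0849 for Clps, 0.138 for Ang4 and 0.374 for Reg4, although all 13 genes were still higher. Without control library 1 there were 23 calls, which lacked Mptx2 (edgeR adjusted p = 0.0859) and Reg4 (0.0721). Without control library 2 there were 31 and without ketogenic library 2 there were 19, the latter lacking Gm14851.

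The 23 granule-rich cells were then left out. They had been chosen by their share of the granule list, so smaller differences in granule genes among the remaining cells follow in part from that choice. Of the list, 18 genes could be tested, 11 were higher and their median log2 difference was 0.17. Of 2953 genes tested, 2 (0.0677%) were called by edgeR, Reg4 and the gene under the naming level. At an unadjusted p under 0.05, 3.22% of genes were higher and 2.81% lower. Clps in the 165 cells stood at 172 and 429 CPM on the control diet and at 455 and 407 on the ketogenic diet, a log2 difference of 0.50 ± 0.30 (edgeR adjusted p = 0.801). Ang4 changed sign, at 479 and 889 against 198 and 667 CPM, with a difference of -0.72 ± 0.37 (edgeR adjusted p = 0.745). Gm14851 changed sign too, at -0.84 ± 0.37 (edgeR adjusted p = 0.745). For Defa24 the difference was 0.12 ± 0.16, for Itln1 0.25 ± 0.20 and for Lyz1 0.48 ± 0.25, none of them called. Mptx2, Defa23, Gm15292, Gm15315 and Pnliprp2 had too few UMIs outside the granule-rich cells to be tested.

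Reg4 alone among the named calls kept its rise in the 165 cells. There it stood at 843 and 1054 CPM on the control diet and at 1851 and 2537 on the ketogenic diet and rose by 1.20 ± 0.18 (edgeR adjusted p = 0.0116). Goblet cells showed a like pattern at a lower level, 115 and 88.8 against 336 and 310 CPM, with an own difference of 1.66 ± 0.11 (edgeR adjusted p = 2.9e-07). The diet difference of Reg4 in the Paneth class minus that in goblet cells was -0.18 ± 0.13 (edgeR adjusted p = 0.985). With each library left out in turn from the 165 cells, Reg4 stayed higher by 1.02 to 1.45 and was called each time.

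Levels within granule-rich cells can only be described, since each control library had 2 such cells. Lyz1 stood at 24172 and 13751 CPM in those of the control libraries and at 40254 and 27209 in those of the ketogenic libraries. Ang4 stood at 4103 and 3215 against 5486 and 8319. Defa24, Defa17 and Itln1 overlapped between the diets. Clps did as well, at 2341 and 7590 against 6212 and 7134 CPM.

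Genes of Paneth identity and secretion are given as counts beside those over all genes tested, of which 0.44% were called and 48.97% were higher. Of 22 measured transcription factors 12 were tested, and 0 rose or fell at the adjusted threshold by edgeR; at an unadjusted p under 0.05 the count was 0 as well, where 4.6% of all genes were higher and 3.08% lower. With 12 genes, a count of 0 is near those shares. Atoh1 stood at 377 and 380 CPM on the control diet and at 230 and 275 on the ketogenic diet, and its TMM-scaled log2 difference was -0.13 ± 0.15. Sox9, which Paneth cells need to form, stood at 138 and 132 against 89.3 and 162, with a difference of 0.30 ± 0.23. Of 18 niche signal genes only 5 had a UMI and 2 were tested. Wnt3, a Wnt ligand that supports stem cells, had 8 and 9 UMIs on the control diet and 21 and 15 on the ketogenic diet, a difference of 1.00 ± 0.36 (edgeR adjusted p = 0.613). Genes such as Wnt3a, Wnt11 and Bst1 were at 0 UMIs in all 4 libraries, so no level was detectable at this depth.

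With 0.44% of all genes called, 0 calls in lists of this size is near the background. Of 21 tested genes of the unfolded protein response, 13 (61.9%) were higher and 0 were called, with a median of 0.14. Of 34 secretory machinery genes, 19 (55.9%) were higher and 0 were called, with a median of 0.04. Of 12 autophagy genes, 9 were higher and 0 were called. The goblet list had 22 tested genes, 14 higher and 0 called, with a median of 0.09, and Muc2 differed by 0.34 ± 0.25.

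Genes of lipid use were mostly higher on the ketogenic diet, and 0 of those named here passed the test in this class. Of 13 targets of PPAR, the nuclear receptors that sense fatty acids, 12 (92.3%) were higher with a median of 0.54, and of 16 genes of mitochondrial fatty acid oxidation 13 (81.25%) were higher with a median of 0.58, beside 48.97% higher and a median of -0.01 over all genes tested. At an unadjusted p under 0.05, 7 genes of each list were higher, against 4.6% of all genes. Markers of enterocytes lay the same way, with 7 of 8 tested genes higher, a median of 0.42, 2 higher at an unadjusted p under 0.05 and 0 called, although their summed level overlapped between the diets at 1617 and 2090 against 1905 and 1547 CPM. Of the 13 genes encoded in mitochondria 12 were tested, all 12 were higher on the TMM scale, with a median of 0.21, and 0 were called, while their summed plain CPM was lower, at 36895 and 36078 against 28871 and 31195. The part of either in the lipid lists was not tested. Fabp1, a fatty acid binding protein, stood at 55.3 and 82.7 CPM on the control diet and at 342 and 145 on the ketogenic diet, a difference of 2.37 ± 0.46 (edgeR adjusted p = 0.0617). Its own difference in goblet cells was 2.64 ± 0.15 (edgeR adjusted p = 1.1e-07), and the difference between the classes was -0.36 ± 0.27 (edgeR adjusted p = 0.985). Cpt1a, which brings fatty acids into mitochondria, had 6 and 3 UMIs on the control diet and 17 and 17 on the ketogenic diet, a difference of 1.82 ± 0.46 (edgeR adjusted p = 0.257). Acadvl, an enzyme of the first oxidation step, differed by 1.27 ± 0.38 (edgeR adjusted p = 0.396). Both differences remained close to these values in the 165 cells, at 1.77 and 1.38. For cholesterol synthesis 12 of 16 genes were lower, with a median of -0.35. Hmgcs1, an early enzyme of that pathway, differed by -0.68 ± 0.18 (edgeR adjusted p = 0.306). The medians of these lists lay the same way in goblet cells and enterocytes. There they were 0.44 and 0.75 for PPAR targets, 0.28 and 0.33 for fatty acid oxidation and -0.33 and -0.71 for cholesterol synthesis.

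**Figure D5:**
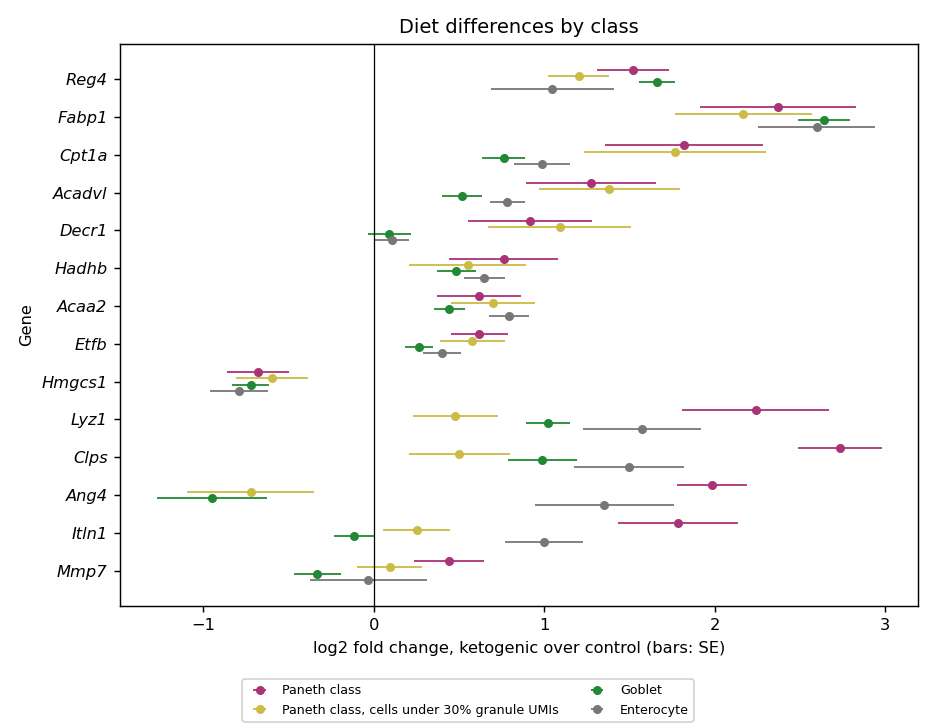
Log2 fold changes of 14 genes, ketogenic over control, with SE bars (n = 2 libraries per diet) in the Paneth class, its 165 cells under 30% granule UMIs, goblet cells and enterocytes. Reg4 is above 1 in all 4 sets, whereas Clps and Ang4 lie at 2.74 and 1.99 in the whole class and at 0.50 and -0.72 in the 165 cells.

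Whether the diet differences of the class differed from those of other classes was tested in fits of 8 sums with library as a block. Against goblet cells, 21 of 9313 genes (0.225%) had a higher signed diet difference in the Paneth class and 2 (0.0215%) a lower one by edgeR. Of these 23, 12 are granule genes. Against enterocytes, 34 of 11324 genes (0.3%) had a higher and 5 (0.0442%) a lower signed difference, and 15 of these 39 are granule genes. Granule genes could enter either fit through the Paneth class alone, where they are high, so both counts describe the calls and add no support. A higher signed difference need not be a larger one: that of Reg3b was 0.006 in the Paneth class and -1.70 in enterocytes. Such a fit borrows its spread across genes, so its SE and p-value can understate how far a single gene varied between libraries. DESeq2 called 5 and 2 genes in place of 23 and 39. Of the differences between classes named below or in the closing section, those of Mptx2 and AY761184 against both classes were called by both tools. Mptx2 had at most 10 UMIs in the goblet cells of any library, and Defa26 at most 11. Against goblet cells, however, the call of Mptx2 was lost without control library 1 (edgeR adjusted p = 0.101), control library 2 (0.444) or ketogenic library 2 (0.365) and with thinned sums (1.0), and that of Defa26 without control library 2 (0.969) or ketogenic library 2 (0.197) and with thinned sums (0.852). Against enterocytes Mptx2 was called without each library in turn, but not with thinned sums (1.0). Those of Ang4, Defa26, Gm14851, Gpx2, Reg3b and Reg3g were called by edgeR and not by DESeq2.

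Ang4 had the smallest p against goblet cells by edgeR, and was not called by DESeq2 at nearly the same difference of 2.77 (DESeq2 adjusted p = 0.9998). In goblet cells it stood at 66.3 and 184 CPM on the control diet and at 48.4 and 83.6 on the ketogenic diet, an own difference of -0.95 ± 0.32, and the difference between the classes was 2.81 ± 0.14 (edgeR adjusted p = 1.51e-90). The SE of 0.14 is smaller than the 0.32 of goblet cells alone. Control libraries 1 and 2 also stood apart, with 1040 and 976 CPM in the Paneth class beside 66.3 and 184 in goblet cells. This edgeR p-value thus understates the spread between libraries. Without granule-rich cells the difference between the classes was 0.14 and not called. Of the 23 calls against goblet cells, 6 changed sign and 6 were still called without those cells. Lyz1 is in both counts. Its difference from goblet cells, whose own Lyz1 difference was 1.02, went from 1.17 to -0.62 (edgeR adjusted p = 0.000133). Sst and Gip, also still called, had 559 and 1124 goblet UMIs in control library 1 and at most 21 and 43 in any other library. Of the 39 calls against enterocytes, 14 changed sign and 20 were still called without granule-rich cells, and these counts may share genes too.

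Gpx2, an epithelial glutathione peroxidase, had a lower signed diet difference in the Paneth class, with own differences of -0.47 there and 0.15 in goblet cells. It stood at 574 and 658 CPM on the control diet and at 306 and 336 on the ketogenic diet in the Paneth class, and at 702 and 577 against 684 and 738 in goblet cells. Its diet difference was lower in the Paneth class by -0.66 ± 0.15 than in goblet cells (edgeR adjusted p = 0.00658) and by -0.92 ± 0.21 than in enterocytes (edgeR adjusted p = 0.00478). Without granule-rich cells these were -0.74 and -0.999, both called. The call against goblet cells was lost without control library 2 (-0.47, edgeR adjusted p = 0.908) and without ketogenic library 2 (-0.57, 0.408), and so was the call against enterocytes (-0.52, 0.442, and -0.84, 0.473). Gpx2 alone in the Paneth class differed by -0.47 ± 0.16 and was not called (edgeR adjusted p = 0.542).

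The antimicrobial lectin genes Reg3b and Reg3g were not called within the class. Reg3b stood at 121 and 939 CPM in the control libraries of the Paneth class and at 201 and 605 on the ketogenic diet, with a difference of 0.01 ± 0.65. In enterocytes it stood at 2352 and 1886 against 418 and 892 CPM. The difference between the classes was 1.96 ± 0.22 (edgeR adjusted p = 5.2e-16), and without control library 1 it was 0.66 and not called (edgeR adjusted p = 0.0939). For Reg3b the SE of 0.22 is smaller than the 0.65 of the Paneth class alone, so it understates the spread between libraries. Reg3g had a difference between the classes of 1.52 ± 0.20 (edgeR adjusted p = 1.34e-10).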

How the data were processed

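Single-cell RNA was measured in 4 libraries, 2 per diet. The authors deposited whole-number UMI counts for all cells in 1 matrix, beside a cell table with library and cell type. Per the submitters' processing notes, Cell Ranger 2.1.0 and mm10 were used. The filtering and annotation of cells and the handling of doublets are not stated in the labels or headers. The cell types were used as deposited.

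Counts were summed per library over the Paneth class and tested with edgeR 4.0.16 (R 4.3.3; quasi-likelihood, TMM, filterByExpr by diet, Benjamini-Hochberg, threshold 0.05). SEs derive from the fold change and F. Diet differences between classes were interaction terms over 8 sums, blocked by library. Cell numbers per class used total cells as offset. Single values used exact permutation over libraries. A left-out library leaves a lone library assumed to vary like the others. The scripts were tested on simulated counts. Replicates were not copies (chi-square per degree of freedom 5.98 and 6.28).

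Members and gene lists were chosen with earlier results of these data known. Named genes are up to 12 rises and 12 falls called without overlap of the diets and with a mean log2 CPM from 6 upward, 4 or fewer called genes of a list, the class markers, granule, niche and transcription factor genes with at least 20 UMIs, and up to 5 called interactions each way; 1 gene so chosen is not reported here. Decr1, Hadhb, Acaa2, Etfb, Hmgcs1, Fabp1, Cpt1a, Acadvl, Reg3g and the goblet genes given as values were chosen after their values were seen. Alternatives were DESeq2 1.42.0, RLE, no filter, thinning (2000 UMIs a cell, or the lowest sum), mitochondrial UMIs under 20%, a replicate block, leaving out granule-rich cells (30%), the granule list or a library, and, chosen after seeing the data, cells with the highest Scrublet scores (scanpy 1.11.5; top 6%), thresholds of 20% and 50%, and granule-rich cells with a library. Positions are GENCODE M21 (mm10). Counting may split reads among near-identical defensins.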

Additional observations from a re-analysis of the deposited data

Results flagged for a closer look

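Diet differences that differed between the Paneth class and another class, by the interaction test in edgeR, are given here as Paneth class minus the other class (log2, n = 2 libraries per diet), with no explanation weighed; DESeq2 called only those of Mptx2 and AY761184 among them. Against goblet cells they were 3.35 for Mptx2, 2.81 for Ang4, 2.80 for Defa26 and 2.64 for AY761184. Without the 23 granule-rich cells these were 0.14 for Ang4, 0.92 for Defa26 and 0.08 for AY761184, none called, and Mptx2 could not be fitted. Lower in the Paneth class were Gpx2 (-0.66) and the histone gene Hist1h2bc (-0.89), both still called without those cells. In goblet cells Mptx2 had only 4 and 5 UMIs on the control diet and 5 and 10 on the ketogenic diet. Defa26 had 4 and 11 against 7 and 5 there. Neither gene reached the test in goblet cells alone, so both differences set the rise in the Paneth class against a floor.

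Against enterocytes the differences were 3.49 for Mptx2, 2.36 for AY761184, 2.23 for Gm14851 and 1.96 for Reg3b. Those of Mptx2, AY761184 and Gm14851 changed sign without granule-rich cells, and Reg3b was 1.94 and still called. Mptx2 had 18 and 21 UMIs in enterocytes of the control libraries and 18 and 25 in those of the ketogenic libraries. Lower in the Paneth class were Hmgn1, a nucleosome-binding protein (-0.81), Fabp2, a fatty acid binding protein (-0.86), Gpx2 (-0.92) and the interferon-induced Ifitm3 (-0.99). In the Paneth class Fabp2 stood at 1082 and 1161 CPM in control and at 1096 and 834 in ketogenic libraries, and in enterocytes at 1050 and 1055 against 2699 and 1763. Hmgn1 and Ifitm3 were each called in 1 of 9 alternatives. Their calls were lost when any single library was left out.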

How the results depend on the processing

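The count of 13 genes changed by diet in the Paneth class was 44 without a filter on low counts, 22 without the highest doublet scores, 8 with the granule list left out and 2 without granule-rich cells; leaving out 1 library gave 2 to 31, and leaving out granule-rich cells and 1 library 9 to 27. A replicate block gave 57 genes, all 13 among them, and a share of cells of 0.45 on the log2 scale; same-numbered libraries did not deviate together (r = -0.04), so the number marks nothing known. Library was already a block in the comparisons between classes. Against goblet cells the count of 23 was 5 by DESeq2, 9 without granule-rich cells, 8 with thinned sums and 19 to 22 without 1 library. Against enterocytes the count of 39 was 2, 23 and 4 in the same order and 22 to 46 without 1 library. Without granule-rich cells Ang4 (-0.72) and Gm14851 (-0.84) changed sign in the class, as did the difference from enterocytes for Mptx2 (-1.64), AY761184 (-0.20) and Gm14851 (-1.35). The cause was not tested. Without 1 library the log2 ratio of the share of cells ran from 0.20 to 0.68, the difference in granule share from 18.8 to 29.0 percentage points and that in granule-rich cells from 13.8 to 15.95, with ketogenic higher each time. Only 4 granule-rich cells came from control libraries, which limits any statement on those cells.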
